A study of Mus musculus with 6 samples.

Results

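Small nucleolar RNAs (snoRNAs) guide the chemical modification of ribosomal and spliceosomal RNA. Most mammalian snoRNAs are cut out of the introns of longer transcripts: the host RNA is spliced, the intron lariat is opened and exonucleases trim the intron back to the snoRNA, which is protected by its proteins. Box C/D snoRNAs guide 2′-O-methylation and box H/ACA snoRNAs guide pseudouridylation. Many hosts code for ribosomal or other translation proteins, and others are long noncoding RNAs whose spliced exons have no long reading frame and are often removed by nonsense-mediated decay. Transcripts of many hosts start at a C within a run of pyrimidines, the terminal oligopyrimidine (TOP) start that ribosomal protein mRNAs also have.

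The host genes examined are known mainly for their snoRNAs: Gas5, Snhg1, Snhg3, Snhg5, Snhg6, Snhg8, Snhg11, Snhg12 and Snhg14. They were taken from a list of names, and all 9 were found among the 35325 protein-coding and long noncoding RNA (lncRNA) genes of the GENCODE vM21 annotation, in which 351 genes carry an annotated snoRNA or small Cajal body RNA on their own strand. GENCODE types Snhg11 as protein-coding and the other 8 as noncoding. Their levels were measured by cap analysis of gene expression (CAGE), which counts the 5′ ends of capped RNAs as tags at single-base positions, on nuclear RNA of 3 libraries of R08 mESCs (a male mouse embryonic stem cell line, grown without feeder cells in serum with leukemia inhibitory factor) and 3 libraries of Oli-neu mOPCs (an immortalised neural line derived from mouse oligodendrocyte progenitor cells, grown with N2 supplement, the thyroid hormones T3 and L-thyroxine, bFGF and PDGF-BB). Neither line was treated. Each cell type is represented by 1 line, and all mESC libraries carry a different library label in the files from all mOPC libraries, so that the cell type, the culture medium and the library preparation cannot be told apart. Nothing in the labels says whether the 3 libraries of a line came from separate cultures, so p-values measure only the spread between these libraries.

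The libraries held between 16657021 and 40928704 tags. The mESC markers summed to between 3996 and 4384 tags per 1000000 tags of the library (CPM) in mESCs and to between 17.3 and 23.4 in mOPCs, where 6 of 8, including Pou5f1 and Nanog, were at 0. The mOPC markers summed to between 7.23 and 8.16 in mESCs and to between 1399 and 1494 in mOPCs, of which Nkx2-2 was at 0 in all 3 mOPC libraries. Pdgfra, another of them, differed little, with between 5.41 and 5.70 CPM in mESCs and between 7.82 and 8.60 in mOPCs (log2 fold change 0.53). Markers of mature oligodendrocytes (5 of 5 higher in mOPCs, summed level between 312 and 343 against between 12.1 and 14.6) and of neurons (3 of 5 lower and 1 higher in mOPCs, between 92.2 and 114 against between 289 and 313, most of it Stmn2 in mESCs and Syt1 in mOPCs) were not restricted to 1 line. The 3 astrocyte markers summed to between 7.86 and 10.6 CPM in mESCs and to between 0.806 and 1.14 in mOPCs, the 4 fibroblast markers to between 2.32 and 2.40 and to between 9.67 and 12.3, and the 3 microglia markers to at most 0.139 in any library. The part of these programs in the values of the host genes was not tested.

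The start sites of the host genes are shown first, because the sequence there bears on the positions of the tags. Each stretch runs 5′ to 3′ on the gene's strand (RefSeq promoter sequence, GRCm38.p6) from 40 bases before the position with the most tags to 19 bases after it. Capitals mark TATA letters between 40 and 20 bases before that position and, downstream, the run of C and T that begins with a C 1 base after it. Entries were found for 8 of the 9 genes (not Snhg6). The Snhg3 entry stops 3 bases before its main position, and the Snhg12 stretch is drawn around the start of its first exon, where 37 tags lay, because its position with the most tags lies elsewhere in the gene.
Gas5, chr1:161035125-161035184, plus strand: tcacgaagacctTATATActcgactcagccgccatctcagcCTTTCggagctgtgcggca
Snhg8, chr3:123508318-123508377, minus strand: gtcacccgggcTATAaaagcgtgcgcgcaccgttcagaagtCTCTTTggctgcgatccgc
Snhg5, chr9:88522870-88522929, minus strand: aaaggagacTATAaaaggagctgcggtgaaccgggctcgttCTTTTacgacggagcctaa
Snhg12, chr4:132308636-132308695, plus strand: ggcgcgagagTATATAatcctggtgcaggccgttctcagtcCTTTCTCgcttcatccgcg
Snhg1, chr19:8723446-8723505, plus strand: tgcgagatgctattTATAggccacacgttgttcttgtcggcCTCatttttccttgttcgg
Snhg3, chr4:132353637-132353674, minus strand: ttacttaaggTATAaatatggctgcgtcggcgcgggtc
Snhg11, chr2:158375672-158375731, plus strand: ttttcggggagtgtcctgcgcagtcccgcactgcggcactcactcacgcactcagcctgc

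In 5 of the 6 genes for which the stretch between 40 and 20 bases before the main position could be read, the letters TATA (the same on both strands) began between 26 and 31 bases before it, at 28 bases in Gas5, 29 in Snhg8, 30 in Snhg3, 31 in Snhg5 and 26 in Snhg1. The same stretch held TATA in 4.41% of the 8895 genes for which it could be read. Snhg11 was the member without these letters, and at the first exon of Snhg12 they began 30 bases upstream. A match is a description of the letters only.

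All 9 host genes had fewer promoter tags in mOPCs than in mESCs. Promoter tags are those within 500 bp of an annotated 5′ end of the gene on its strand, given as CPM. In genes with many annotated 5′ ends the windows cover much of the gene, so the count can include tags in introns and snoRNAs. They count starts and do not grow with the length of a transcript. The mESC and mOPC libraries did not overlap for any member, and all 9 passed an adjusted p of 0.05 in edgeR's quasi-likelihood test over all genes, against a background of 47.8% of the 16713 tested genes that were called lower in mOPCs. All 9 passed the filter on low counts, but Snhg11 and Snhg14 passed only through their mESC libraries, so that both had to differ and the count rests on the other 7. The median log2 fold change was −1.82 over the members, also with Snhg11 at the bound given below, and −0.12 over all genes tested. Over the 7 members without Snhg11 and Snhg14 the middle value was that of Snhg1, at −1.76. Scaling to library totals put the median of all genes at −0.05 and RLE scaling put it at −0.21, and the members were lower under both.

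Gas5, a host of box C/D snoRNAs whose RNA accumulates when growth stops, had the highest level of the members in both lines. Its promoter held 2019.7, 1586 and 1712 CPM in the 3 mESC libraries and 974, 1052 and 1053 CPM in the 3 mOPC libraries. Every mOPC library lay below every mESC library, and the log2 fold change was −0.86 ± 0.09 (SE, adjusted p = 3.01e-14, edgeR), which made it the smallest difference among the 9. Snhg3, host of the H/ACA snoRNAs Snora73a and Snora73b, was next in mESCs with 947, 770.1 and 789 CPM but held 54.5, 66.9 and 61.3 CPM in mOPCs. Its log2 fold change was −3.84 ± 0.10 (SE, adjusted p = 6.42e-55, edgeR). Rcc1, which codes for the guanine exchange factor of Ran, has an annotated 5′ end at position 132353605 on the same strand, inside the window of Snhg3, so the tags of the pair cannot be told apart. Leaving out tags within 500 bp of the 5′ ends of other genes also removes the main position of Snhg3, at 132353634. The log2 fold change of the tags that remained was −4.49 (adjusted p = 1.14e-26, edgeR). It does not describe the main start of Snhg3 and does not separate the pair.

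Snhg5 and Snhg8 had similar mESC levels. Snhg5, host of Snord50a and Snord50b, held 227, 214 and 212 CPM in mESCs and 89.3, 91.2 and 84.1 CPM in mOPCs, a log2 fold change of −1.37 ± 0.08 (SE, adjusted p = 3.19e-29, edgeR). Snhg8, host of the H/ACA snoRNA Snora24, held 219, 201 and 178 CPM in mESCs and 53.5, 66.5 and 57.6 CPM in mOPCs, a log2 fold change of −1.82 ± 0.09 (SE, adjusted p = 5.60e-34, edgeR). In both genes the spread within a line was far smaller than the gap between the lines.

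Snhg6 and Snhg1 formed a lower pair. Snhg6, host of the box C/D snoRNA Snord87, held 92.2, 85.5 and 96.4 CPM in mESCs and 30.1, 35.9 and 43.1 CPM in mOPCs (log2 fold change −1.38 ± 0.10, SE, adjusted p = 5.71e-17, edgeR). Snhg1, host of Snord22 and of further box C/D snoRNAs, held 75.5, 66.5 and 64.7 CPM in mESCs and 17.2, 21.3 and 24.7 CPM in mOPCs (log2 fold change −1.76 ± 0.10, SE, adjusted p = 8.35e-21, edgeR). The levels of the members in mESCs, in order, were Gas5, Snhg3, Snhg5, Snhg8, Snhg6, Snhg1, Snhg11, Snhg12 and Snhg14. In this order the libraries of Snhg5 and Snhg8 overlapped, and those of every other pair of neighbours did not.

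The remaining 3 members were weak or silent in mOPCs. Snhg12, host of Snord99, Snora16a, Snora44 and Snora61, held 15.1, 14.6 and 18.7 CPM in mESCs and 2.69, 2.25 and 2.61 CPM in mOPCs (log2 fold change −2.74 ± 0.14, SE, adjusted p = 2.33e-33, edgeR). Snhg14, the long transcript of the Prader-Willi/Angelman region that hosts 208 annotated snoRNA loci, had 99, 47 and 39 tags in mESCs and 2, 2 and 10 tags in mOPCs (log2 fold change −4.08 ± 0.33, SE, adjusted p = 3.83e-21, edgeR). Without mOPC replicate 3 the value was −4.99, and over all tags inside the gene it was −2.45. Snrpn, an imprinted gene of the same region whose promoter lies upstream of Snhg14, held between 117 and 135 CPM in mESCs and between 6.79 and 9.02 CPM in mOPCs, a log2 fold change of −4.02 ± 0.10 (SE, adjusted p = 3.25e-58, edgeR).

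Snhg11, a host gene known for its expression in neurons, had 914, 359 and 449 promoter tags in the mESC libraries and 0 in each mOPC library. Against a floor of 3 tags over the 91692553 mOPC tags together, which is 0.0327 CPM, its pooled mESC level of 23.6 CPM was at least 721-fold higher. Inside the gene, 3 tags were found in mOPC replicate 2 and 3 in mOPC replicate 3, against 342 to 908 in the mESC libraries.

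**Figure D1:**
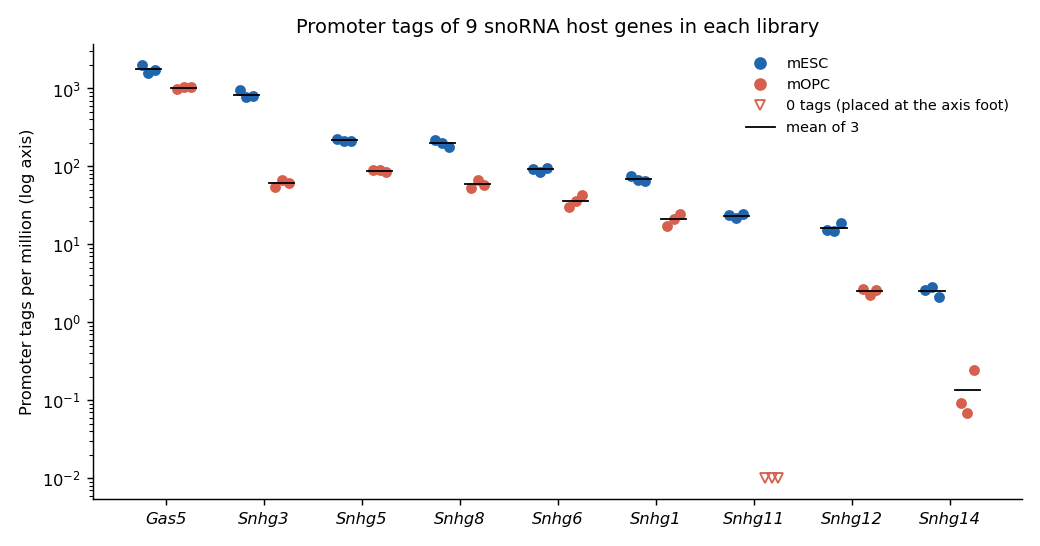
Promoter tags in CPM (log axis) of the 9 host genes in each of 3 mESC and 3 mOPC libraries, with the mean of 3 as a line; open triangles stand for 0 tags and are placed at the foot of the axis. The mOPC points lie below the mESC points in every gene, from Gas5 (means 1772 and 1027 CPM) to Snhg11 (23.3 and 0 CPM).

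Genes that start on the opposite strand within 1000 bp were found for 2 members and moved differently. Zbtb37, a zinc finger protein gene with a 5′ end 80 bp from one of Gas5, was higher in mOPCs, with between 10.9 and 11.5 CPM in mESCs and between 29.9 and 34.4 CPM in mOPCs (log2 fold change 1.45 ± 0.10, SE, adjusted p = 5.96e-24, edgeR). Slc3a2, which codes for the heavy chain of amino acid transporters and starts 106 bp from Snhg1, was lower in mOPCs, with between 292 and 309 CPM against between 162 and 175 CPM (log2 fold change −0.92 ± 0.08, SE, adjusted p = 3.77e-18, edgeR).

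The other noncoding hosts did not all follow the 9. Of 12 listed, Snhg4, Snhg7 and Snhg16 were not analysed here. Of the 9 measured, 7 were lower in mOPCs, led by Snhg18 (0 tags in every mOPC library, pooled mESC level at least 98.4-fold higher), Dancr (log2 fold change −2.45), Snhg9 (−2.37) and Zfas1 (−1.88). The 2 that were higher in mOPCs were Snhg20, with 81.7, 94.3 and 86.7 CPM in mESCs and 230.2, 220.4 and 192 CPM in mOPCs (log2 fold change 1.22 ± 0.08, SE, adjusted p = 2.27e-25, edgeR), and Snhg17, with 75.1, 64.7 and 61.9 CPM in mESCs and 115, 96.8 and 109 CPM in mOPCs (0.60 ± 0.09, SE, adjusted p = 7.43e-10, edgeR). Over all genes tested, the background was 47.8% called lower and 43.4% called higher in mOPCs. All 24 listed protein-coding hosts were lower in mOPCs (median −2.30), among them the ribosomal protein genes Rpl5 (−3.51), Rpl4 (−3.44) and Rpl13a (−3.23). Among the 342 annotated hosts other than the 9 members, 278 were tested. Of these, 181 (65.1%) were lower and 81 higher in mOPCs, with a median of −1.03. The 3 hosts whose pattern over the 6 libraries was nearest to Gas5, by Euclidean distance of centred log2(CPM + 1) among 286 hosts, were Bud23 (distance 0.15), Snx5 (0.20) and Alkbh1 (0.23).

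Genes that build snoRNA particles were lower in mOPCs with few exceptions, against a background of 47.8% of the 16713 tested genes called lower. All 4 proteins of the box C/D particle were lower: Nop58 (−2.25), Snu13 (−2.21), the methyltransferase Fbl (−2.06) and Nop56 (−1.44), which is also among the hosts above. Of the 6 box H/ACA genes, 5 were lower, led by Nop10 (−3.02), Naf1 (−2.37), the pseudouridine synthase Dkc1 (−2.13), itself a host, and Nhp2 (−1.95), and Gar1 was higher (0.43 ± 0.09, SE, adjusted p = 3.34e-06, edgeR). Of 7 assembly factors, 6 were lower, led by Ruvbl2 (−2.46), Nufip1 (−1.94), Znhit3 (−1.89) and Ruvbl1 (−1.84), and Znhit6 did not pass the test (−0.03, adjusted p = 0.702, edgeR). The smallest decreases counted as lower were those of the box H/ACA gene Shq1 (−0.31) and the assembly factor Rpap3 (−0.29).

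The enzymes that act on the spliced products gave mixed values. Dbr1, which opens intron lariats, was lower in mOPCs (−1.93 ± 0.09, SE, adjusted p = 4.52e-36, edgeR), the 3′ exonuclease gene Parn was higher (0.64 ± 0.08, SE, adjusted p = 3.43e-11, edgeR), and the 5′ exonucleases Xrn1 (−0.15) and Xrn2 (0.10) and the exosome gene Exosc10 (−0.13) did not pass. With RLE scaling Xrn1 and Exosc10 passed as lower, and with library totals Xrn2 passed as higher. Of 10 nonsense-mediated decay genes, 7 were lower, led by Upf3a (−1.27), Smg9 (−1.11), Smg8 (−0.89) and Upf2 (−0.54), Smg6 was higher (0.37), and Upf3b did not pass (0.11, adjusted p = 0.225, edgeR), though it passed as higher with library totals. Over all genes tested the share called lower was 47.8%.

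**Figure D2:**
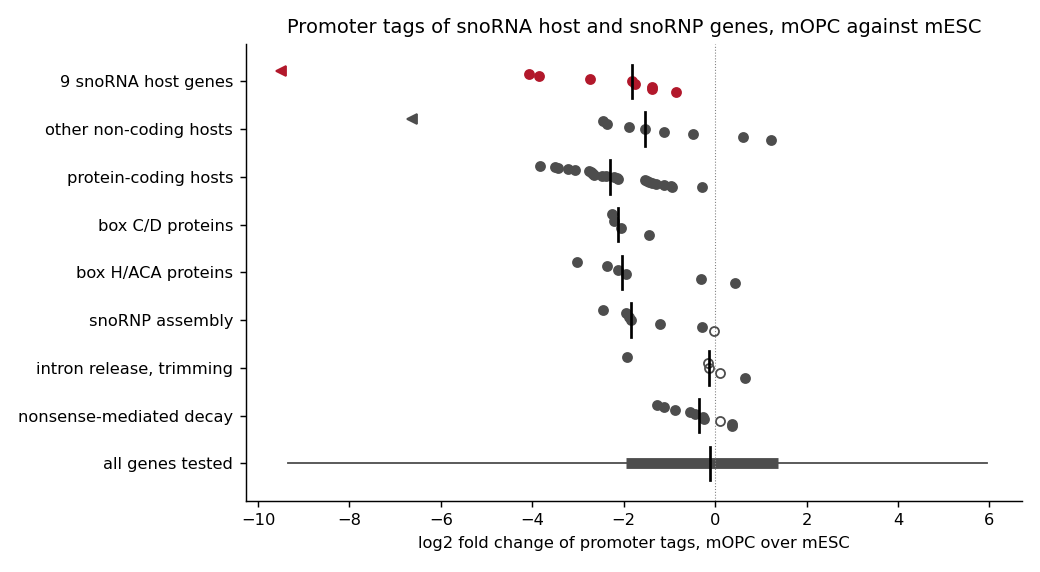
Log2 fold change of promoter tags, mOPC over mESC, for the 9 host genes (red) and the other lists (grey), 1 point per gene; open points did not pass, triangles are lower bounds of the decrease for Snhg11 and Snhg18, and black bars are medians. For all 16713 genes the thick bar spans the 25th to 75th percentile (−1.95 to 1.38) and the thin line the 5th to 95th (−9.34 to 5.95); the members run from −0.86 to −4.08 apart from Snhg11.

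In Gas5, Snhg1, Snhg3, Snhg5, Snhg6 and Snhg8 the same position had the most tags in all 6 libraries, and in Gas5, Snhg8 and Snhg5 nearly all tags lay beside it. For Gas5 this was chr1:161035165, which held 62.4%, 60.3% and 57.5% of the promoter tags in mESCs and 62.1%, 62.4% and 59.3% in mOPCs. With its 2 upstream neighbours it held at least 93.4% in every library. For Snhg8 the position chr3:123508337 held 84.2%, 85.4% and 85.1% in mESCs and 84.6%, 87.8% and 86.6% in mOPCs. In both genes the lines overlapped. For Snhg5 the position chr9:88522889 held between 63.2% and 65.4% in mESCs and between 58.4% and 61.2% in mOPCs, and a second start 3 bases upstream, at 88522892, took most of the other tags. The stretch that holds 80% of the tags, from the 10th to the 90th percentile, was 3 bases long in Gas5, 2 in Snhg8 and 4 in Snhg5 in every library.

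Snhg3 used the same position in both lines (chr4:132353634) but with a different spread. It took 74.7%, 76.9% and 74.0% of the tags in mESCs and 57.5%, 65.7% and 64.6% in mOPCs, and the 10th to 90th percentile width was 3 bases in each mESC library against 49, 43 and 43 bases in mOPCs. Snhg1 (chr19:8723486, between 51.7% and 59.5% in mESCs and between 41.6% and 49.2% in mOPCs) and Snhg6 (chr1:9944119, between 54.6% and 57.0% and between 43.4% and 45.2%) had the same order of shares. The width of Snhg6 went the other way, with 44, 41 and 39 bases in mESCs and 34, 30 and 32 in mOPCs. In Snhg1 the width was 1385, 1496 and 1936 bases in mESCs and 1940, 2156 and 1939 in mOPCs. Its windows take in tags far inside the gene, so its share does not describe the promoter alone. Of the 7 members with at least 20 promoter tags in every library, the share at the main position was lower in all mOPC than in all mESC libraries for Snhg1, Snhg3, Snhg5, Snhg6 and Snhg12, that is for 5, against a background of 32.7% of 11526 genes. Snhg12 had to be among them, because its main position, chosen by the tags of all libraries, had 0 tags in mOPCs. The exact permutation test gave p = 0.1 for each of the 5 (two-sided, 0.14 after adjustment over the 7 members), and 0.1 is the smallest p that 3 libraries against 3 allow.

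**Figure D3:**
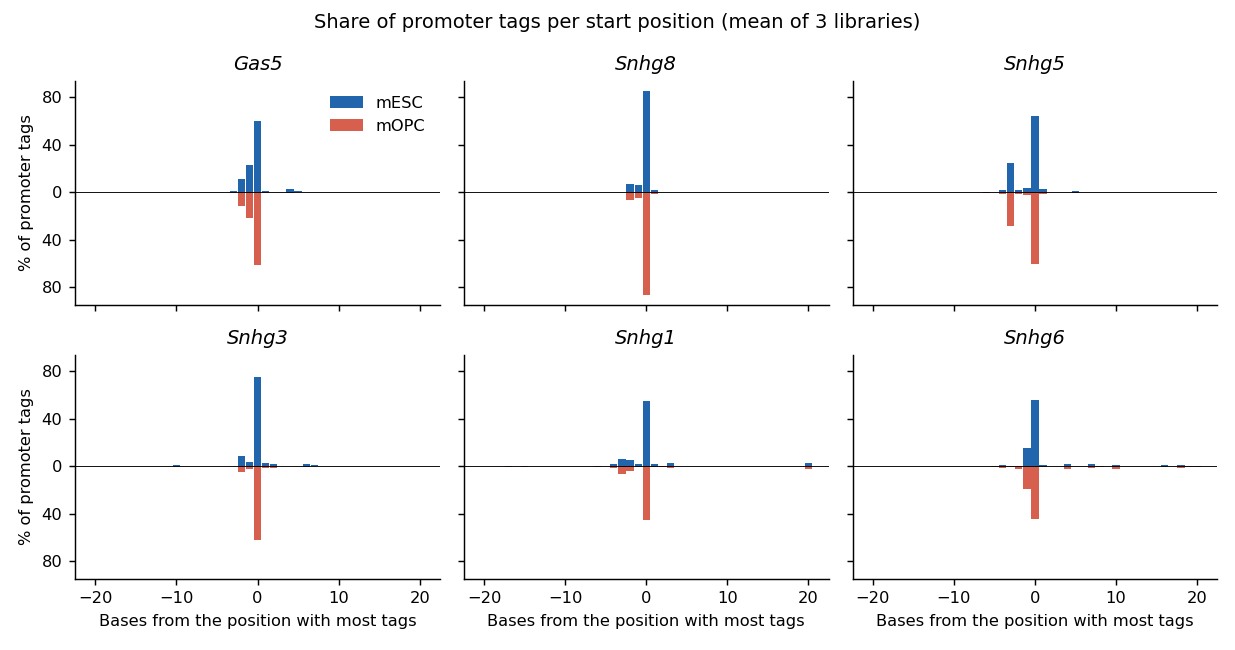
Share of promoter tags (%) at each base from 20 bases before to 20 after the position with the most tags, for 6 host genes, as the mean of 3 mESC libraries (upward, blue) and 3 mOPC libraries (downward, red). The same base leads in both lines in all 6 genes, with means of 84.9% and 86.3% in Snhg8 and of 75.2% and 62.6% in Snhg3.

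Snhg12 differed between the lines in where its tags began. Its leading mESC position, chr4:132310154, lies in an annotated exon 86 bases before the 5′ end of Snora61 and 33 bases before the nearest annotated 5′ end. Within 20 bases of it lay 243, 121 and 211 tags in mESCs and 0 in each mOPC library. In mOPCs the leading positions within the promoter windows were 132309667 and 132309668, 202 and 203 bases after the 5′ end of Snora16a, with 8 to 15 tags. More mOPC tags (39, 44 and 94) began at base 4 of Snord99, which lies outside these windows. At the first exon, within 20 bases of 132308676, lay 20, 9 and 8 tags in mESCs and 5, 5 and 10 in mOPCs, that is 0.501 ± 0.0580 and 0.215 ± 0.0372 CPM (SD, n = 3 each). The windows of its 8 annotated 5′ ends come to 2565 bp, in part upstream of the gene. They cover most of the gene (2402 bp) but not Snord99. Its fold change therefore mixes the starts inside the windows: it was −1.80 with windows of 1000 bp and −3.41 with windows of 100 bp.

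Snhg11 and Snhg14 had dispersed starts in mESCs. The main position of Snhg11, chr2:158375712, held 206 of 914, 78 of 359 and 106 of 449 tags, followed by 158375660, and the 10th to 90th percentile width lay between 81 and 83 bases. In Snhg14 the leading position over all libraries held 10 tags, and no position led in more than 1 library. The RefSeq promoter window around the start of Snhg14 (chr7:60450128-60450427) held 0 tags in all 6 libraries. At the depth of the data the starts of Snhg14 could not be placed.

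The main positions lay 1 base before an annotated 5′ end in Gas5, Snhg1, Snhg3, Snhg5 and Snhg6, on both strands. Over the 12774 genes with at least 100 tags at their main position, 18.2% on the plus and 18.3% on the minus strand lay 1 base before an annotated 5′ end, against 3.08% and 3.06% exactly at it. A pyrimidine followed by a purine, the usual pair at a start site with the purine as the first transcribed base, was found with its purine at the deposited position for 6.75% to 7.85% of the tags in RefSeq promoters and 1 base downstream for 64.3% to 67.9%. CAGE cDNAs are known to carry an extra base copied from the cap, but the cause of this offset was not tested. It bears on the TOP starts of the members. Counted at the deposited position as a C followed by at least 4 pyrimidines, TOP starts made up between 58.7% and 64.0% of the readable promoter tags of Gas5, at most 2.47% in Snhg5 and at most 1.90% in Snhg8.

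Read 1 base downstream, which was chosen after seeing the data, TOP starts made up between 83.1% and 85.0% in Gas5, between 84.5% and 88.4% in Snhg8 and between 59.4% and 66.3% in Snhg5. They were below 1% in Snhg1, whose run of pyrimidines stops after CTC, and in Snhg3, whose main position was not readable. The same reading gave at least 4.09% of all readable promoter tags in each mESC library and at most 1.83% in each mOPC library. In Gas5 the mean TOP share was 83.8% ± 1.05 in mESCs and 84.3% ± 0.282 in mOPCs (SD, n = 3 each), and the exact two-sided permutation test gave p = 0.4. In Snhg8 the means were 85.2% ± 0.645 and 86.8% ± 1.68 (p = 0.3, exact permutation test), and in Snhg5 65.2% ± 1.18 and 61.2% ± 1.61 with no overlap between the lines (p = 0.1, exact permutation test, the smallest p possible).

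Tags inside the introns were few beside promoter tags in most members. In the mOPC libraries Snhg12 was an exception, with 88, 110 and 178 intronic tags and 59, 65 and 107 promoter tags. An intronic tag lies in an intron of at least 1 annotated transcript of the gene and more than 100 bp from each of its 5′ ends. A tag between 100 and 500 bp from a 5′ end can therefore count as both intronic and promoter. The promoter windows come to 4360 bp in Gas5 (gene of 4118 bp) and 3026 bp in Snhg1 (2969 bp). They come to 2061 bp in Snhg5 (1880 bp), 2222 bp in Snhg6 (2160 bp) and 1075 bp in Snhg8 (853 bp). Each total includes bases upstream of the gene. Introns of all genes took between 7.76% and 8.09% of the tags in mESC libraries and between 14.8% and 15.3% in mOPC libraries. TMM scaling sets this shift to 0, with 40.9% of 13863 genes called lower and 40.4% called higher in mOPCs, whereas scaling to library totals puts the median of all genes at 0.98 on the log2 scale, with 3492 lower and 8545 higher. The intronic fold changes below are relative to the shift.

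Of the 8 members that passed the filter on low counts, 7 had fewer intronic tags in mOPCs relative to other genes, and Snhg6 did not pass the test. Snhg11 and Snhg14 are among the 7 and passed the filter only through their mESC libraries. Snhg8, with 18, 6 and 8 intronic tags in mESCs and 3, 3 and 4 in mOPCs, was not tested. In Gas5 there were 582, 225 and 228 intronic tags in mESCs and 267, 398 and 587 in mOPCs (log2 fold change −1.02 ± 0.09, SE, adjusted p = 7.95e-18, edgeR). As CPM these are 15.4, 13.5 and 12.4 against 12.2, 13.8 and 14.3, which overlap, and with library totals the log2 fold change was −0.04 (adjusted p = 0.702, edgeR). Snhg1 held 182, 78 and 106 intronic tags in mESCs and 40, 59 and 99 in mOPCs (−2.21 ± 0.15, SE, adjusted p = 9.91e-26, edgeR). Snhg3 held 160, 54 and 75 against 47, 63 and 55 (−2.08 ± 0.17, SE, adjusted p = 7.56e-21, edgeR).

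Snhg5 (−1.85), Snhg14 (−2.26) and Snhg12 (−0.88) were also lower. For Snhg12 library totals gave 0.10 (adjusted p = 0.531, edgeR), and intronic positions over 500 bp from 5′ ends gave 0.19 (adjusted p = 0.395, edgeR), whereas leaving out tags inside snoRNAs gave −2.20 (adjusted p = 1.87e-14, edgeR). Snhg11 had 47, 22 and 25 intronic tags in mESCs and 0, 2 and 0 in mOPCs. Snhg6 went from 71, 24 and 22 tags to 48, 63 and 121 (−0.32 ± 0.20, SE, adjusted p = 0.137, edgeR). With tags inside snoRNAs left out, the value of Snhg6 was −3.15 (adjusted p = 4.66e-13, edgeR), and with library totals and all intronic tags it was 0.66 (adjusted p = 0.00162, edgeR).

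The annotation sets much of what counts as intronic here. A stretch that is an intron of 1 transcript can be an exon of another. Of the intronic tags of Snhg1, Snhg8 and Snhg12 none lay outside every annotated exon, and 3 did in Gas5. In Snhg3 (240 of 289 in mESCs and 161 of 165 in mOPCs) and Snhg6 (101 of 117 and 229 of 232) most intronic tags did, and in Snhg5 15 did over all libraries.

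Within the hosts, a larger share of the remaining tags was intronic in mOPCs. Of the 7 members with at least 20 tags in every library, 6 had a higher intronic share in all mOPC than in all mESC libraries, against a background of 59.3% of 12568 genes, whose median share was 4.21% in mESCs and 7.96% in mOPCs. In Snhg12 the share was between 16.5% and 26.2% in mESCs against 69.8%, 80.3% and 74.8% in the mOPC libraries, and in Snhg6 it was 2.03%, 1.68% and 1.24% against 7.25%, 6.08% and 6.84%. Gas5 had between 0.723% and 0.851% in mESCs and between 1.25% and 1.36% in mOPCs, and the lines overlapped in Snhg8. The exact permutation test gave p = 0.1 for each of the 6, or 0.117 after adjustment. These shares also go up when promoter tags go down, as they did in every member.

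**Figure D4:**
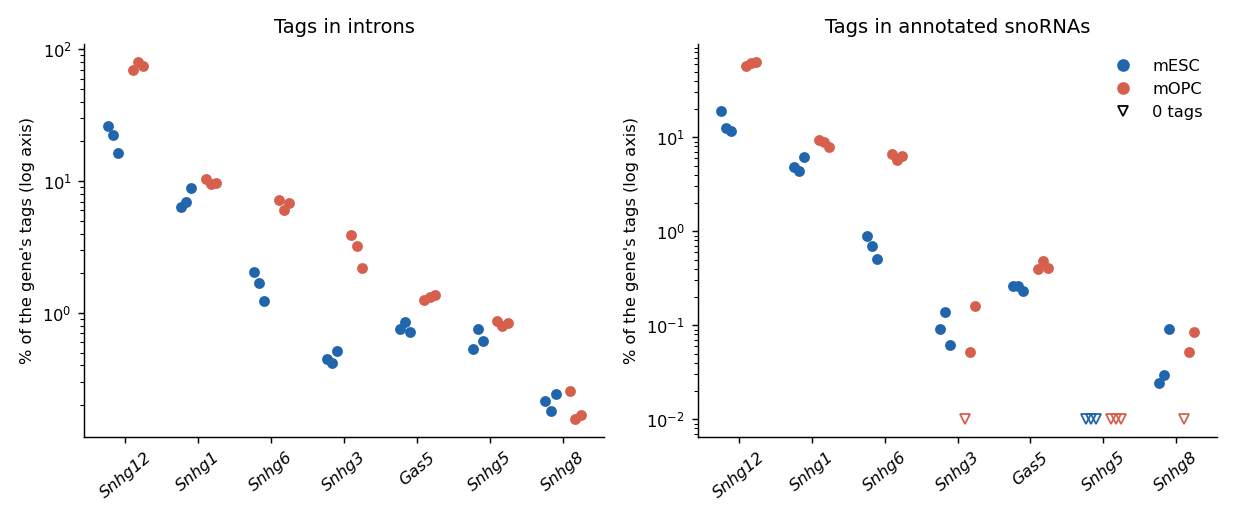
Percent of a gene's tags (log axis) that lie in introns (left) and in annotated snoRNAs (right) in each mESC (blue) and mOPC (red) library, for the 7 members with at least 20 tags in every library; open triangles stand for 0. Snhg12 lies at 16.5% to 26.2% in mESCs and at 69.8% to 80.3% in mOPCs in the left panel, and Snhg6 has mean snoRNA shares of 0.697% and 6.21%.

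A part of the intronic tags began at the 5′ ends of the snoRNAs themselves. Outside Snhg14, the members hold 29 annotated snoRNA loci, of which 26 had tags within 10 bases of the 5′ end and 18 had at least 20 over the 6 libraries. The most used base was sought within these 10 bases only, and in all 18 it lay between 2 bases before and 6 bases after the annotated end. Larger starts can lie outside the stretch. At 40 bases before Snord22 there were 170 tags, against 93 at 2 bases before it. At 86 bases before Snora61 there were 314, against 60 at 1 base before it. The stretch around the 5′ ends held 1890 tags on 609 bases, or 3.10 per base, and the rest of the snoRNAs 616 tags on 2479 bases, or 0.248 per base. None of the 208 loci of Snhg14 and neither snoRNA of Snhg5 had a tag there. By the methods, only tags that aligned to 1 place in the genome were kept, in which case tags from repeated snoRNA copies are not counted. Whether the deposited counts were made in this way is not settled here, and the part of this in the zeros was not tested.

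The box C/D snoRNAs Snord87 (in Snhg6) and Snord99 (in Snhg12) had the most tags at their ends among the 29, with 262 and 309. The first 40 bases of both are shown as annotated, with the letters TGATGA in capitals. These are a form of box C, the motif near the 5′ end that binds the core proteins, and they were found within the first 20 bases of 21.7% of 1507 annotated snoRNA genes (searched on the snoRNA strand).
Snord87, chr1:9942510-9942549, minus strand: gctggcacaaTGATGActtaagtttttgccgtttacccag
Snord99, chr4:132310691-132310730, plus strand: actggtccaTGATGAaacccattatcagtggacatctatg
In Snord87 the most used position was base 5, with 165 tags, and the capitals begin at base 11. In Snord99 it was base 4, with 241 tags, and the capitals begin at base 10.

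The snoRNA ends did not all follow their hosts. Snord87 had 31, 10 and 11 tags at its 5′ end in mESCs and 43, 59 and 108 in mOPCs, or 0.672 ± 0.127 and 2.22 ± 0.369 CPM (SD, n = 3 each), a 3.30-fold higher mean in mOPCs, while the promoter tags of Snhg6 were 2.51-fold lower. Snord99 had 45, 15 and 20 tags in mESCs and 57, 56 and 116 in mOPCs, a 2.32-fold higher mean CPM. The promoter tags of Snhg12, which mix several starts, were 6.41-fold lower. Within 20 bases of its first-exon start the mean was 2.33-fold lower, from 37 tags in mESCs and 20 in mOPCs. The lines did not overlap in the tags of either snoRNA (exact permutation test, p = 0.1, the smallest possible). In the same host as Snord99, Snora61 went the other way, with 49, 18 and 25 tags in mESCs and 1, 3 and 5 in mOPCs.

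Of the 18 snoRNA ends with at least 20 tags, 2 were higher in all mOPC libraries, 7 were lower in all of them and 9 overlapped. Over the 102 such ends in all 351 hosts, the members' own included, 17.6% were higher and 36.3% lower without overlap. Among the lower ones were Snord22 of Snhg1 (53, 30 and 52 tags against 11, 17 and 41), Snora73a of Snhg3 (27, 8 and 6 against 0, 0 and 2) and Gm25187, a snoRNA of Snhg11 (12, 3 and 6 against 0 in each mOPC library). Over the 9 snoRNAs of Gas5 the summed tags at the ends were 4.26 ± 0.861 CPM in mESCs and 3.51 ± 0.0929 CPM in mOPCs (SD, n = 3 each), which overlapped (p = 0.2, exact permutation test). Over all 351 hosts the tags at snoRNA 5′ ends came to between 205 and 264 CPM in mESCs and between 152 and 162 CPM in mOPCs.

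Tags in snoRNAs made up a higher share of the gene in all mOPC libraries for 4 of 7 members, Snhg6, Snhg12, Snhg1 and Gas5, against a background of 20.1% of 264 hosts. The median share of these hosts was at most 0.0364% in any library, so many of them had few or no such tags. In Snhg6 the share was 0.886%, 0.699% and 0.506% in mESCs and 6.65%, 5.69% and 6.27% in mOPCs. In Snhg12 it was 19.1%, 12.6% and 11.5% in mESCs and 57.1%, 61.3% and 63.4% in mOPCs. The exact permutation test gave p = 0.1 for each of the 4, or 0.175 after adjustment over the 7 members. Counted within 10 bases of the snoRNA 5′ ends, a choice made after seeing the data, Snhg1 overlapped and 3 members remained. The snoRNA shares also go up when promoter tags go down.

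**Figure D5:**
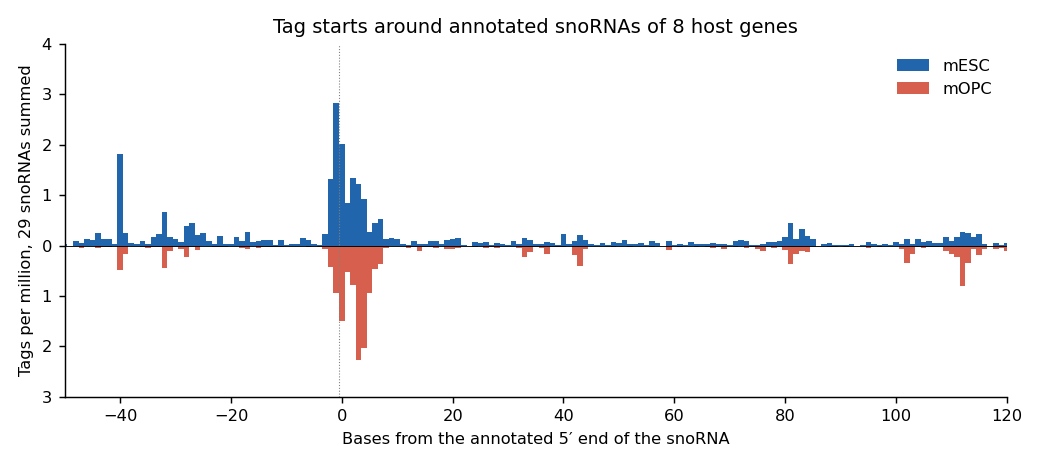
Tags in CPM at each base from 50 bases before to 120 bases after the annotated 5′ end (dotted line), summed over the 29 snoRNA loci of 8 host genes without Snhg14, for pooled mESC libraries (upward, blue) and pooled mOPC libraries (downward, red). Tags gather within 10 bases of the end, where 1890 lay, and the peak at 40 bases before it is a start ahead of Snord22 that held 170 tags.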

How the data were processed

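Nuclear CAGE libraries (3 of R08 mESCs, 3 of Oli-neu mOPCs) were used. The authors deposited raw tag counts for every strand-specific start position. By the methods, reads were sorted on their barcodes, those with an N were dropped, linker sequence was cut away and tags were aligned to mm10 with bowtie, keeping unique hits, while the submitters' processing notes name CASAVA 1.8 and BWA 0.5.9. Which aligner made the files is not settled here, and it could change which repeated positions have tags. Gene models were GENCODE vM21 (GRCm38, the same build).

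Counts per gene were taken within 500 bp of annotated 5′ ends, and in introns over 100 bp from them, for all 35325 genes. They were compared with edgeR 4.0.16 in R 4.3.3 (quasi-likelihood test, robust, TMM on library totals, filterByExpr, Benjamini-Hochberg, adjusted p under 0.05). The fit was also run on simulated data in which 200 genes changed, whereas 15243 genes were called for promoter tags here. That simulation cannot show how the scaling behaves when most genes change. SEs follow from the test statistic. DESeq2 1.42.0, other scalings, windows, filters, a replicate block and each library left out were alternatives. Shares needed at least 20 tags in every library and were compared by exact permutation tests. A fold against 0 tags uses a floor of 3 tags. Floors cover counting error only. Python 3.11.15, numpy 2.4.6, pandas 2.3.3 and matplotlib 3.10.9 were used.

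The 9 genes, the gene lists and the tests were chosen with earlier results of these data known. Named genes are the members, opposite-strand genes within 1000 bp, up to 4 genes per list and direction by fold change, and the 3 hosts nearest to Gas5. Rcc1, Snrpn, single snoRNAs and further list genes were named after their values were seen. Some genes that this rule would name are not reported here.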

Additional observations from a re-analysis of the deposited data

How the results depend on the processing

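All 9 members stayed lower in mOPCs, past the threshold, under every alternative that gave them a value. Snhg11 and Snhg14 passed the filter on low counts only through their mESC libraries and had to differ, so the statement rests on the other members. For Snhg3, leaving out tags near the 5′ ends of other genes also removed its main position. The windows of 100 bp and the 10 bases around the main position left too few tags to test Snhg14. Within 10 bases of its main mESC position, a choice made after seeing the data, Snhg12 had 0 tags in mOPCs, so its fitted value there is no fold. The log2 fold change of Gas5 was smallest, at −0.71, without mESC replicate 1.

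The replicate numbers did not pair the libraries: the correlations of same-numbered deviations were 0.004, 0.109 and 0.008. With a replicate block, 15224 genes were called for promoter tags, against 15243 without it, and 11030 for intronic tags, against 11267, and no member's call changed.

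Intronic values depended most on the processing. With library totals, Gas5 no longer passed (−0.04), and the sign turned for Snhg6 (0.66) and Snhg12 (0.10). The sign of Snhg12 also turned for introns over 500 bp from 5′ ends (0.19). Members with fewer intronic tags numbered 2 instead of 7 both for that choice and for positions outside every exon, where fewer genes could be tested, and members with a separated intronic share then numbered 2 instead of 6. Members with a separated TOP share numbered 0 at the deposited position, 1 with C or T as the first base, 1 when read 1 base downstream, and between 0 and 1 with 1 library left out. Snhg6 passed as lower in introns without mESC replicate 3 (−0.45, adjusted p = 0.045, edgeR). The causes of these changes were not tested. Levels of a few tags, as in Snhg14, Snhg8 introns and single snoRNAs, are limited by depth.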
